A study of Mus musculus with 20 samples.

Results

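The genes described here are 9 immediate early genes (Fos, Fosb, Jun, Junb, Egr1, Egr2, Atf3, Ier2 and Nr4a1) and Zfp36, 10 of the 19505 genes that the arrays measured with a probe set of 1 symbol. They were taken by name from the platform annotation, and each had 1 probe set among the 22206 on the array. None was removed by a filter on low signals, since no such filter was used. The arrays measured whole epididymal fat pads of 20 male C57BL/6 mice, littermates that were all homozygous for a floxed Tnf gene (TNF-αFlox/FLox). The 10 mice called wt were LyzMcre-/-, and the 10 called cre were LyzMcre+/-. Every mouse ate chow up to 10 weeks of age and a purified diet with 40% of calories from fat for the next 18 weeks, and was 28 weeks old when tissue was taken. Each of the 2 batches named in the titles held 5 wt and 5 cre mice. LyzM-Cre is active in macrophages and other myeloid cells, neutrophils included, so deletion of Tnf was directed to those cells only. No group carried Cre without the floxed gene, so an effect of Cre itself and the deletion cannot be told apart.

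Immediate early genes are transcribed within minutes of a stimulus without new protein synthesis, mostly through serum response factor, ETS factors and CREB acting on pre-bound promoters. Most encode transcription factors (the FOS, JUN and ATF proteins that pair into AP-1, the EGR zinc finger proteins and the nuclear receptor NR4A1), and their mRNAs are short-lived. ZFP36, also called tristetraprolin, is induced by the same signals and binds AU-rich elements of cytokine mRNAs, that of Tnf above all, which are then degraded. In fat of obese animals these genes are expressed by macrophages as well as by adipocytes and stromal cells, and they are also known to rise while a tissue is being dissected.

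No member passed the test between genotypes after adjustment over all probe sets, although 9 of the 10 were lower in cre mice and Zfp36 and Nr4a1 had the smallest p-values. Zfp36 had a mean log2 signal 0.82 below that of wt mice and Nr4a1 one 0.47 below, and both differences were larger in batch 1 than in batch 2. Across mice of one genotype and batch, most pairs among Fos, Egr1, Egr2, Atf3 and Zfp36 varied together. Atf3, Egr2 and Fos varied with the level of macrophage genes, and Zfp36 did so less closely. Egr1 and Zfp36 varied with the level of fibroblast genes. There Egr2 and Atf3 had higher correlations than Zfp36, which did not pass adjustment. Nr4a1, Ier2 and Fosb had correlations with the macrophage genes between 0.08 and 0.19. Their signals lay near or below the middle of the array (median percentiles 38.9, 53.2 and 45.2). Low signals hold background, so these low correlations are less certain.

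The array medians lay between 6.49 and 6.58, and the median correlation of an array with the others lay between 0.952 and 0.982. The targeted gene, Tnf, differed by −1.99 between genotypes (cre minus wt, SE 0.24, limma adjusted p = 0.000822), with no overlap of the groups, and it was the 1 probe set of 22206 to pass adjustment. Of 14 measured adipocyte genes 13 lay above every array median in all mice, the exception being Cidea, and the list mean lay between 13.8 and 16.2 in wt and between 15.3 and 16.3 in cre mice. In 4 mice a list of another tissue stood more than 1 log2 unit above all other mice of the genotype: liver and exocrine pancreas genes in wt replicate 4, epididymis and seminal vesicle genes in wt replicate 6 and cre replicate 3, and erythroid genes in cre replicate 9. Values without these 4 mice, which keep 8 of each genotype, are given below. Liver genes were also high in mice that this gap does not pick out: their list mean was 11.1 in wt replicate 9 and 10.9 or more in cre replicates 1, 3, 4 and 10, against 5.81 in the lowest mouse. All 10 liver genes had higher means in cre mice (median 1.31; Alb 2.55, limma p = 0.0418, adjusted p = 0.785), and of the mice with high liver genes, wt replicate 9 and cre replicates 1, 4 and 10 were kept. The deviations of the early genes had correlations from −0.22 to 0.29 with those of the liver mean, and with the liver mean as a further term, added after seeing the data, the difference of Zfp36 was −0.84 and that of Nr4a1 −0.43. All levels below are log2 signals, all differences are cre minus wt on that scale from a limma fit with batch as a term, and each difference has 10 mice per genotype. Levels of different genes come from different probes and are not compared. The tissue was bulk, so fewer cells of a type and less RNA per cell cannot be told apart.

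**Figure D1:**
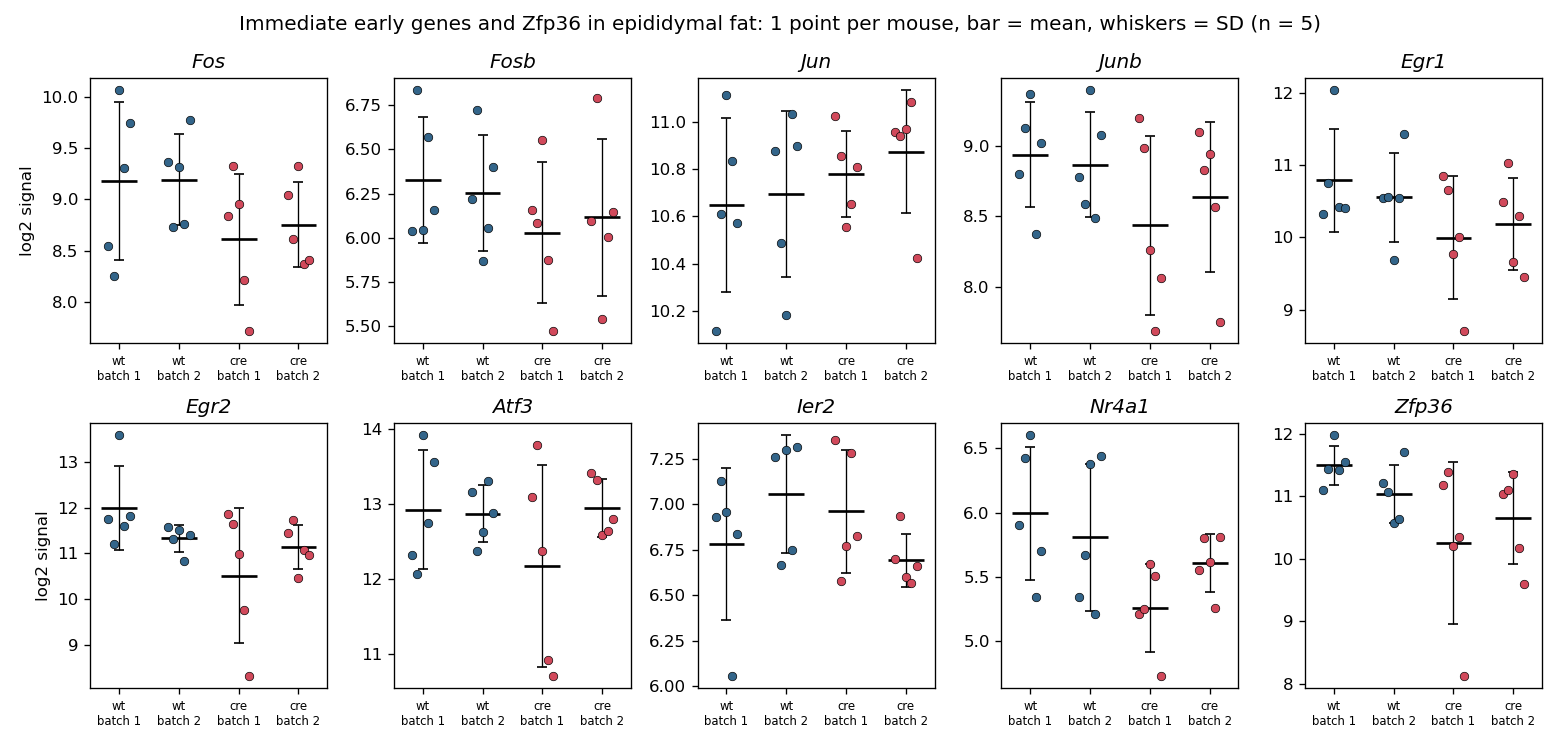
Log2 signal (vertical axis, a separate scale for each gene) of the 10 genes in the 4 groups of genotype and batch, 1 point per mouse, with the mean (bar) and SD (whiskers) of 5 mice. The genotypes overlap for all 10 genes, and single mice lie far from the rest, such as wt replicate 5 at 13.57 for Egr2 and cre replicate 9 at 8.11 for Zfp36.

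Fos (chr12:85473890-85477274) encodes the AP-1 partner that forms dimers with JUN proteins. The 250 bases before its start in RefSeq (GRCm38.p6, chr12:85473640-85473889, plus strand) are shown because Fos is one of the genes that varied together. Capitals mark the CRE half-sites and the TATA box:
Fos: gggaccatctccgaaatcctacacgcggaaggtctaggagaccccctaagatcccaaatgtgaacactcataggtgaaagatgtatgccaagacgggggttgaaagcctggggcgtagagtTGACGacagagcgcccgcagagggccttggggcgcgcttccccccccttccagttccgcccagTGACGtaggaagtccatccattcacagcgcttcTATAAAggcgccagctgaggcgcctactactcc
Log2 signals of Fos ran from 8.26 through a median of 9.31 to 10.06 in wt mice and from 7.71 through 8.73 to 9.33 in cre mice. The groups overlapped, with 2 cre mice below all wt mice and 4 wt mice above all cre mice. The difference was −0.50 (SE 0.24, limma p = 0.0454, adjusted p = 0.788), and the two-sided exact permutation of genotype within batches gave p = 0.0641. It had similar sizes in both batches, −0.57 and −0.44. Leaving out 1 mouse at a time brought the exact p under 0.05 in 5 of 20 cases, with p-values from 0.0247 to 0.124.

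The other AP-1 genes differed less. Fosb (chr7:19302696-19310118), a FOS relative whose protein also pairs with JUN proteins, ran from 5.87 through 6.19 to 6.83 in wt and from 5.47 through 6.09 to 6.79 in cre mice. These ranges overlapped over most of their length, and the difference was −0.22 (SE 0.17, limma adjusted p = 0.848). Jun (chr4:95049036-95052222), the AP-1 core subunit, ran from 10.11 through 10.72 to 11.11 in wt and from 10.42 through 10.90 to 11.08 in cre mice. Jun was the 1 member with a higher mean in cre mice, by 0.15 (SE 0.14, limma adjusted p = 0.867). Junb (chr8:84976909-84978748), a JUN relative and a weaker activator, ran from 8.38 through 8.91 to 9.39 in wt and from 7.69 through 8.70 to 9.19 in cre mice. The 4 lowest mice for Junb were all cre, but the rest of the cre mice lay among the wt mice, and the difference was −0.36 (SE 0.21, limma adjusted p = 0.810).

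Atf3 (chr1:191170296-191183333) encodes a stress-induced factor of the ATF/CREB family that can repress inflammatory genes. It ran from 12.07 through 12.82 to 13.91 in wt mice and from 10.71 through 12.72 to 13.79 in cre mice. The medians were close, and the lower cre mean came from 2 cre mice below all wt mice. The difference was −0.33 (SE 0.34, limma adjusted p = 0.880, exact permutation p = 0.383), and it ranged from −0.50 to −0.14 with 1 mouse left out, the smallest being without cre replicate 9. Its direction was not the same in both batches, at −0.75 in batch 1 and 0.08 in batch 2.

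Egr1 (chr18:34861207-34864956) and Egr2 (chr10:67534469-67542188) encode zinc finger factors, EGR1 a general early activator and EGR2 one also known in myeloid differentiation and in Schwann cells. Egr1 ran from 9.69 through 10.54 to 12.03 in wt mice and from 8.70 through 10.15 to 11.03 in cre mice. The 3 lowest mice were cre and the 2 highest wt, and the difference was −0.58 (SE 0.29, limma p = 0.0556, adjusted p = 0.801, exact permutation p = 0.0815).

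For Egr2 the mean difference was close to that of Zfp36. Egr2 ran from 10.84 through 11.55 to 13.57 in wt mice and from 8.32 through 11.04 to 11.87 in cre mice. The difference was −0.83 (SE 0.38, limma p = 0.0408, adjusted p = 0.785), a 1.78-fold lower mean in cre mice, and the exact permutation gave p = 0.0569. The ends of both ranges were single mice: wt replicate 5 was the highest, with the next wt mouse at 11.82, and cre replicate 9 was the lowest of all. Leaving out 1 mouse at a time gave differences from −0.95 to −0.54, the smallest without cre replicate 9. Without the 4 mice with genes of another tissue the difference was −0.63 (exact permutation p = 0.151). Batch 1 gave −1.47 and batch 2 −0.19, and the limma interaction of genotype and batch gave 1.28 (p = 0.0940, adjusted p = 0.718).

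RefSeq lists several starts for Egr2, and 2 CArG boxes, the sites that serum response factor binds, were present within 250 bases before them. Each is shown on the plus strand with 10 bases on either side (GRCm38.p6, chr10:67537484-67537513 for the first and chr10:67537787-67537816 for the second), with the box in capitals:
Egr2 first box: cggatcttctCCTTTTTTGGaaagtctcgg
Egr2 second box: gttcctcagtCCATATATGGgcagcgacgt

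Ier2 (chr8:84661331-84662852) encodes a small nuclear protein whose gene is induced by growth factors. It ran from 6.05 through 6.95 to 7.31 in wt mice and from 6.56 through 6.74 to 7.36 in cre mice. The cre range lay almost wholly inside the wt range, and the difference was −0.09 (SE 0.16, limma adjusted p = 0.928). It was 0.18 in batch 1 and −0.37 in batch 2, with an unadjusted interaction p of 0.0812 in limma and an adjusted one of 0.712.

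Nr4a1 (chr15:101253902-101274795) encodes the orphan nuclear receptor NUR77, known in macrophages as a brake on inflammatory genes. The 250 bases before its start in the RefSeq table (GRCm38.p6, chr15:101266596-101266845, plus strand) are shown because it was 1 of 2 genes with an exact permutation p under 0.05, unadjusted over the genes. That start lies inside the span given above, not at its first base. Capitals mark the CRE half-sites, which lie on the minus strand here as CGTCA, the EGR site as CGCCCCCGC and the ETS site:
Nr4a1: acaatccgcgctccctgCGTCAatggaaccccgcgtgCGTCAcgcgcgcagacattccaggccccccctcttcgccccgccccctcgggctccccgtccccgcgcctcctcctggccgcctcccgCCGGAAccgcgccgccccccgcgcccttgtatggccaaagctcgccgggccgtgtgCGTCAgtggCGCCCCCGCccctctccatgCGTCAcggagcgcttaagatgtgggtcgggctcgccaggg
Nr4a1 ran from 5.21 through 5.80 to 6.60 in wt mice and from 4.73 through 5.53 to 5.81 in cre mice. No cre mouse reached the wt mean and 5 wt mice lay above every cre mouse, while the other 5 wt mice lay inside the cre range. The difference was −0.47 (SE 0.19, limma p = 0.0240, adjusted p = 0.770), and the exact permutation gave p = 0.0328. It was −0.74 in batch 1 (exact permutation p = 0.0317, where 0.00794 is the smallest possible) and −0.20 in batch 2 (p = 0.452). Its signals were low, with a median at the 38.9th percentile of the array, and low signals hold background, so the size of its difference is less certain. Without the 4 mice with genes of another tissue the difference was −0.31 (exact permutation p = 0.197), and leaving out cre replicate 9 alone gave p = 0.0648. The exact p was under 0.05 in 13 of the 20 cases with 1 mouse left out.

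Zfp36 (chr7:28376784-28379228, minus strand) had the smallest p-value of the 10 genes. The 250 bases before its start (RefSeq, GRCm38.p6, chr7:28379229-28379478, minus strand) are shown for that reason, with an EGR site, an ETS site and a CArG box in capitals:
Zfp36: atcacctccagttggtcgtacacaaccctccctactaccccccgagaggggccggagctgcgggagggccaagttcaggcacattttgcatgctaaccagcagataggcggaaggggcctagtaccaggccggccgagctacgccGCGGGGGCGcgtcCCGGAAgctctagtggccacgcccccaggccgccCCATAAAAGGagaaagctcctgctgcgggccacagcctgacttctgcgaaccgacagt
Zfp36 ran from 10.57 through 11.31 to 11.97 in wt mice and from 8.11 through 10.69 to 11.38 in cre mice. The lowest 5 mice were cre and the highest 5 were wt, and the other 10 mice overlapped. The difference was −0.82 (SE 0.33, limma p = 0.0203, adjusted p = 0.770), a 1.76-fold lower mean in cre mice, and the exact permutation gave p = 0.0223. It was −1.25 in batch 1 (exact permutation p = 0.0397) and −0.39 in batch 2 (p = 0.365). Without the 4 mice with genes of another tissue it was −0.73 (exact permutation p = 0.0265). The exact p stayed under 0.05 in 19 of the 20 cases with 1 mouse left out, and was 0.0502 without wt replicate 5. The size depended more on cre replicate 9, without which the difference was −0.54 (exact permutation p = 0.0442), while the range over all 20 cases was −0.93 to −0.54.

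**Figure D2:**
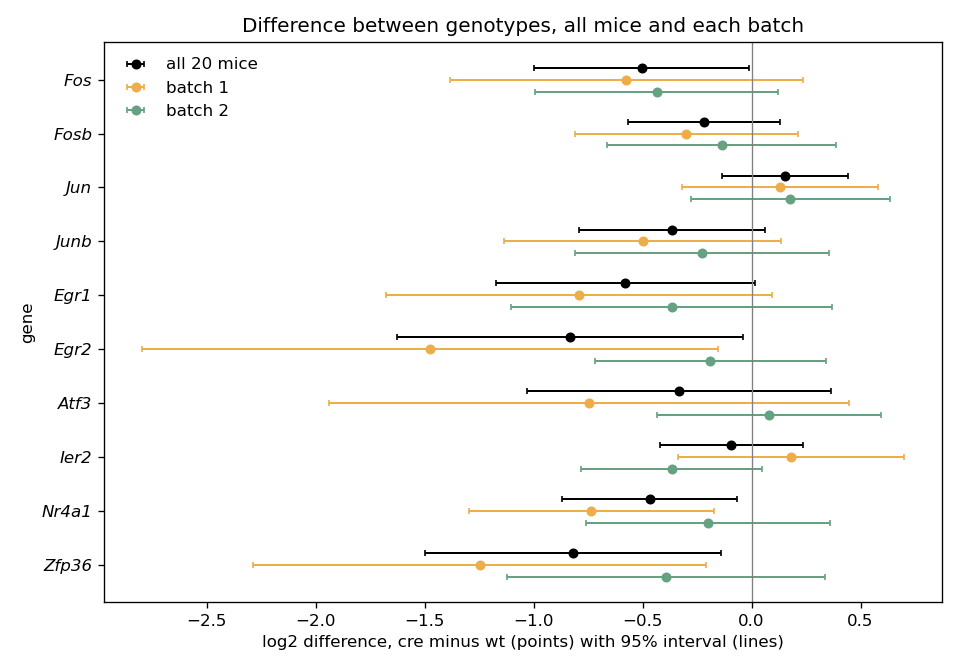
Difference of mean log2 signal, cre minus wt (horizontal axis), for each gene in all 20 mice (black), in batch 1 (orange) and in batch 2 (green), with lines for the 95% interval. The Zfp36 points lie at −0.82, −1.25 and −0.39, and Jun is the 1 gene to the right of 0 in all 3.

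Without the 4 mice with genes of another tissue, the difference of Jun was 0.02 and that of Fosb −0.12, both nearer to 0, while Fos gave −0.53, Junb −0.35, Egr1 −0.62, Atf3 −0.48 and Ier2 −0.03. With 1 mouse left out, Fos ranged from −0.61 to −0.40, Egr1 from −0.69 to −0.41, Junb from −0.44 to −0.27, Fosb from −0.30 to −0.15 and Jun from 0.09 to 0.21.

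Set against the whole array, none of the 10 genes passed adjustment, where 0.0045% of all probe sets did (Tnf alone). At an unadjusted limma p under 0.05, 4 of 10 were lower in cre mice (Fos, Egr2, Nr4a1 and Zfp36) against 3.05% of all probe sets, and 0 were higher against 3.24%. Egr2 and Zfp36 also met the study's own selection, a fold of at least 1.5 with an unadjusted p under 0.05, which 0.662% of all probe sets met in that direction. The median difference of the 10 genes was −0.42, and that of all probe sets was 0.00337. Lower means were found in 9 of 10 genes and in 49.3% of all probe sets, and 7 of the 10 were lower in both batches. The genotypes overlapped for all 10 genes, and 0.00901% of all probe sets had no overlap. Several of the 10 genes vary together, as described next, so the 10 differences are not separate pieces of evidence. They were also chosen with earlier results of these data known, so the shares above describe them and are no test.

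Between batches, no member passed the test. The limma differences of batch 2 minus batch 1 ran from −0.02 to 0.36, and the largest was that of Atf3 (lowest unadjusted p of the 10 genes 0.295). Over all probe sets 0 passed adjustment and 0.572% had an unadjusted p under 0.05, far fewer than that threshold gives where no batch difference exists. The sources do not state whether the values were adjusted for batch before deposit. Such an adjustment would fix the outcome of this test in advance, so likeness of the batches cannot be read from it. No member's genotype difference was shown to differ between batches either: the adjusted interaction p-values of limma ran from 0.712 to 0.982, with 0% of all probe sets past adjustment and 7.41% at an unadjusted p under 0.05.

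Mice of one genotype and batch differed widely in some of these genes. The SD of the deviations from the genotype and batch means was 0.91 for Egr2, 0.82 for Atf3, 0.80 for Zfp36 and 0.71 for Egr1. These 4 lay above the 90th percentile of all probe sets, whose median SD was 0.383. Jun, at 0.30, and Ier2, at 0.32, varied less than most probe sets. Much of the spread came from the same mice, since wt replicate 5 was the highest of all 20 mice for 7 of the 10 genes and cre replicate 9 the lowest for 7.

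The genes were then compared across mice by the correlation of these deviations, with genotype and batch removed. Of the 45 pairs, 9 passed Benjamini-Hochberg adjustment over the pairs in a permutation test within the 4 groups of genotype and batch, and all 9 correlations were positive. By Spearman's rho 8 pairs passed. Correlations of at least 0.604, the lowest that passed, were found in 24.4% of the 45 pairs and in 1.56% of all pairs of probe sets on the array. Of the 9 pairs, 8 were among Fos, Egr1, Egr2, Atf3 and Zfp36, a group picked out after the values were seen. The other was Jun with Egr1. Inside that group Fos with Egr1 (r = 0.48, permutation adjusted p = 0.141) and Atf3 with Zfp36 (r = 0.65, permutation adjusted p = 0.0534) did not pass.

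Egr2 and Atf3 had the highest correlation, with r = 0.84 (permutation p = 0.00064, adjusted p = 0.0096) and rho = 0.78 (permutation p = 0.00138). Egr1 and Zfp36 followed with r = 0.77 (permutation p = 0.00036, adjusted p = 0.0081) and rho = 0.66 (permutation p = 0.00442). Fos and Zfp36 correlated with r = 0.69 (permutation p = 0.00022, adjusted p = 0.0081) and rho = 0.70 (permutation p = 0.0006). This last pair had like values in both batches, 0.68 and 0.71, and 0.67 without the 2 mice farthest from the median. Over the 9 pairs the range of r was 0.58 to 0.90 in batch 1 and 0.03 to 0.71 in batch 2, 0.48 to 0.84 in wt mice and 0.49 to 0.92 in cre mice. Without the 2 farthest mice it was 0.46 to 0.78, and none of the 45 pairs then passed adjustment, so the calls rest in part on those mice. Without wt replicate 5 alone, 2 pairs passed.

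Among Fosb, Jun, Junb, Ier2 and Nr4a1, none of the 10 pairs passed, with r from −0.24 to 0.58. The highest was Ier2 with Nr4a1 (r = 0.58, permutation p = 0.0287, adjusted p = 0.0924; rho = 0.56, permutation p = 0.0267). Zfp36 and Nr4a1, the genes with the smallest genotype p-values, correlated with r = 0.32. Junb was not cleanly apart from the group above, with r of 0.61 with Zfp36, 0.59 with Egr2, 0.57 with Atf3, 0.54 with Fos and 0.50 with Egr1. None of these passed by r, and Junb with Zfp36 passed by rho (rho = 0.65, permutation adjusted p = 0.0465).

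**Figure D3:**
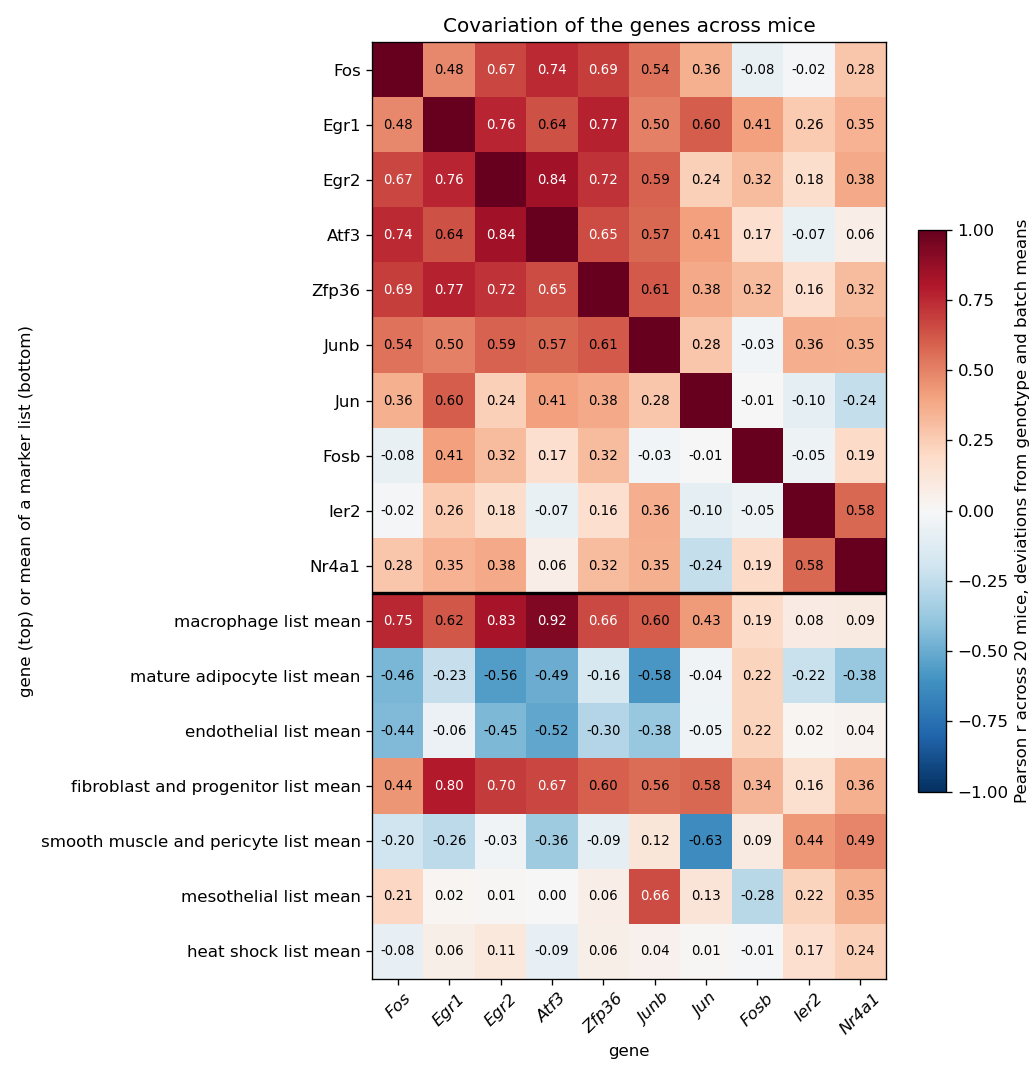
Pearson r across 20 mice of the deviations from genotype and batch means, for each pair of the 10 genes (top block) and for each gene with the mean of a marker list (bottom block). The red square at the upper left holds Fos, Egr1, Egr2, Atf3 and Zfp36, and the first row of the bottom block shows the macrophage list from 0.92 with Atf3 to 0.08 with Ier2.

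The level of macrophage genes was set beside these values, because macrophages accumulate in obese fat and are among the cells that LyzM-Cre reaches. Of 18 macrophage genes 17 were measured, and the mean over the list lay between 12.2 and 14.1 in wt mice and between 10.8 and 13.3 in cre mice. Among the 17 genes 16 had lower means in cre mice, where 49.3% of all probe sets did, with a median difference of −0.36, and none passed adjustment. Fcer1g (−1.25, SE 0.56, limma p = 0.0358, adjusted p = 0.781) and Tyrobp (−0.80, SE 0.38, limma p = 0.0465, adjusted p = 0.789), which encode signalling adaptors of myeloid receptors, had unadjusted p-values under 0.05. Other cell types' lists leaned to one side as well, with no gene past adjustment: 14 of 14 adipocyte genes had higher means in cre mice (median 0.33), and 10 of 10 mesothelial genes lower ones (median −0.45; Msln −0.47, limma p = 0.0440, adjusted p = 0.785). Single mice weighed on these means. Wt replicates 6 (13.8) and 5 (14.4) had the lowest adipocyte means of all mice, where the lowest cre mouse had 15.3. The highest mesothelial mean was also that of wt replicate 6 (8.98). The part of these lists in the early genes' differences was not tested. The highest macrophage list mean was that of wt replicate 5 and the lowest that of cre replicate 9, the same mice that set the ends for most of the early genes. Csf1r, Itgam and Laptm5 had the highest correlations of the list with the mean of the 10 genes (r = 0.88, 0.86 and 0.82).

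Each of the 10 genes was compared with the means of 7 lists, which gave 70 relations. Of these 10 passed adjustment by Pearson's r, 6 by Spearman's rho and 5 by both. Atf3 followed the macrophage mean most closely, with r = 0.92 (permutation p = 2e-05, adjusted p = 0.0014) and rho = 0.93 (permutation p = 2e-05). Its r was 0.95 in batch 1, 0.81 in batch 2, 0.93 in either genotype and 0.89 without the 2 farthest mice. Egr2 had r = 0.83 (permutation p = 0.00039, adjusted p = 0.0091) and rho = 0.82 (permutation p = 0.0007), with 0.90 in batch 1, 0.45 in batch 2 and 0.74 without the 2 farthest mice. Fos had r = 0.75 (permutation p = 0.00207, adjusted p = 0.0241) and rho = 0.75 (permutation p = 0.00232), with 0.91, 0.25 and 0.65 in the same order. For Zfp36 r was 0.66 (permutation p = 0.00512, adjusted p = 0.0448) and rho 0.58 (permutation p = 0.0116, adjusted p = 0.0895), with 0.76, 0.36 and 0.50. It was 0.39 in wt mice, 0.78 in cre mice and 0.42 without cre replicates 7 and 9. The relation of Zfp36 thus passed by one measure and not by the other.

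Egr1 (r = 0.62, permutation adjusted p = 0.0655) and Junb (r = 0.60, permutation adjusted p = 0.0904) came close to Zfp36 with the macrophage mean and did not pass. Nr4a1 had r = 0.09 with the macrophage mean, Ier2 0.08 and Fosb 0.19. Signals of these last genes lay near or below the middle of the array, so their low correlations are less certain. Outside the macrophage list, Egr1 correlated with the fibroblast and progenitor mean (r = 0.80, permutation p = 0.00028, adjusted p = 0.0091; rho = 0.71, permutation p = 0.00153), with 0.85 in batch 1, 0.70 in batch 2 and 0.66 without the 2 farthest mice. Egr2 ran against the adipocyte mean (r = −0.56, permutation p = 0.00094, adjusted p = 0.0164; rho = −0.66, permutation p = 0.00065), with −0.74, −0.42 and −0.58 in that order. Zfp36 passed by r with the fibroblast and progenitor mean as well (r = 0.60, permutation p = 0.00657, adjusted p = 0.0484; rho = 0.52, permutation p = 0.0257, adjusted p = 0.112), at a value close to its macrophage one, with 0.71, 0.31 and 0.45. Junb passed by r with the mesothelial mean (r = 0.66, permutation p = 0.00246, adjusted p = 0.0246; rho = 0.61, permutation p = 0.00933, adjusted p = 0.0816), with 0.52, 0.80 and 0.66. It also ran against the adipocyte mean (r = −0.58, permutation p = 0.00196, adjusted p = 0.0241; rho = −0.58, permutation p = 0.00595, adjusted p = 0.0595), with −0.67, −0.51 and −0.54. Jun ran against the smooth muscle and pericyte mean (r = −0.63, permutation p = 0.00691, adjusted p = 0.0484; rho = −0.48, permutation p = 0.0530, adjusted p = 0.185), with −0.68, −0.59 and −0.46. These relations of Zfp36, Junb and Jun passed by r and not by rho. Atf3 with the adipocyte mean passed by rho alone (rho = −0.65, permutation adjusted p = 0.0271), with r = −0.49 (permutation adjusted p = 0.0535). Its r was −0.78 in batch 1, −0.05 in batch 2 and −0.73 without the 2 farthest mice. With the fibroblast and progenitor mean, Egr2 (r = 0.70, permutation adjusted p = 0.0575) and Atf3 (r = 0.67, permutation adjusted p = 0.0744) exceeded Zfp36 and did not pass. For Jun with the smooth muscle and pericyte mean, r was −0.79 in wt and −0.23 in cre mice. Wt replicate 6, with epididymis and seminal vesicle genes, had the highest such mean (10.6) and a Jun signal of 10.18. None of the 10 genes passed with the endothelial or the heat shock mean.

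**Figure D4:**
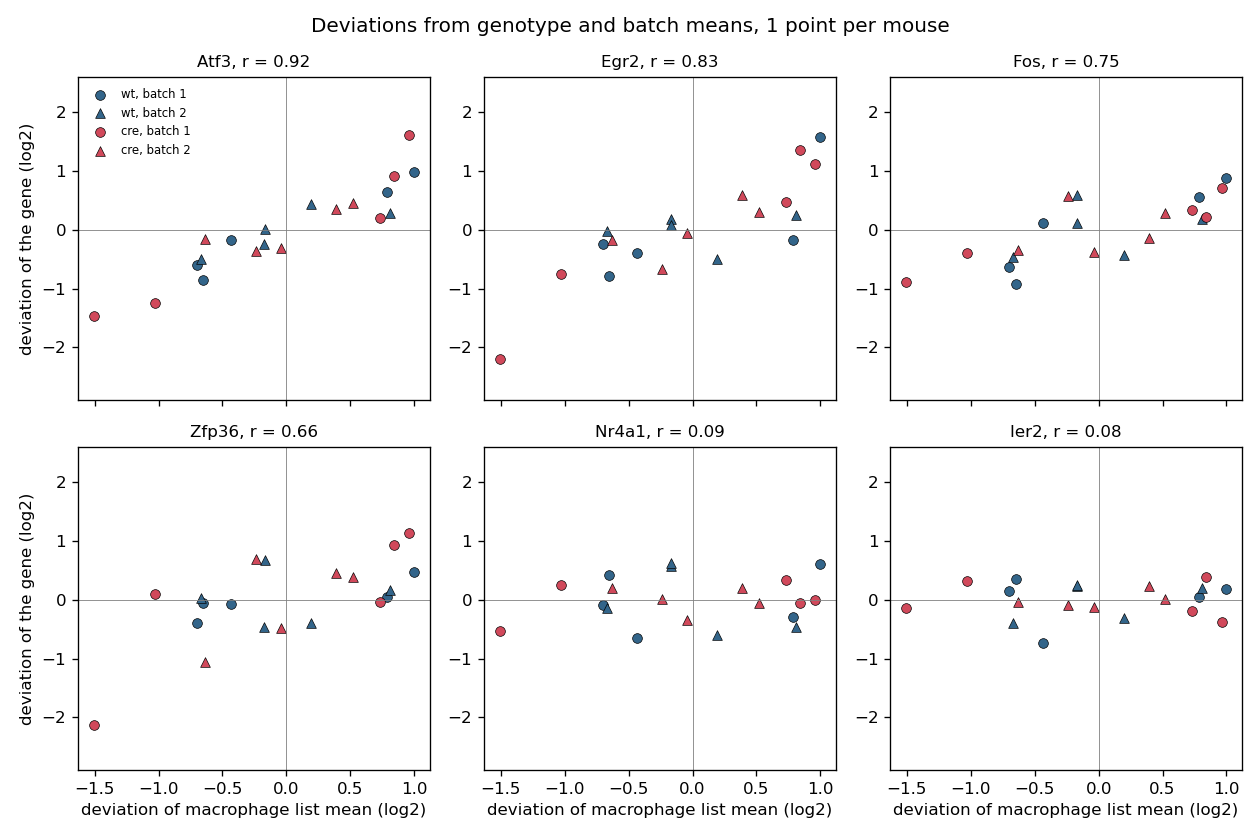
Deviation of 6 of the genes (vertical axis, log2) against the deviation of the macrophage list mean (horizontal axis, log2), both from the mean of the mouse's genotype and batch, 1 point per mouse (blue wt, red cre, circles batch 1, triangles batch 2). Atf3 lies close to a line (r = 0.92), Zfp36 is looser (r = 0.66) with cre replicate 9 at the lower left, and Nr4a1 is scattered (r = 0.09).

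With the macrophage mean as a further term in the limma fit, the genotype difference of Zfp36 was −0.52 (p = 0.0579), that of Egr2 −0.40 (p = 0.102), that of Fos −0.27 (p = 0.141) and that of Atf3 0.09 (p = 0.570), while that of Nr4a1 was −0.43 (p = 0.0452, adjusted p = 0.771). Removing the macrophage mean from the deviations left r between 0.12 and 0.61 for the 9 pairs, and no pair passed adjustment. Whether macrophage content accounts for the lower means was not tested, since the macrophage genes themselves come from the same bulk RNA.

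The wider early response was read from lists of related genes. Of 29 other early response genes 23 had lower and 6 higher means in cre mice, with a median of −0.16, against 49.3% of all probe sets lower. In this list 1 gene had an unadjusted p under 0.05, Jund, the more constant JUN relative (−0.40, SE 0.19, limma p = 0.0434, adjusted p = 0.785). Jund, Klf10 and Myc had the highest correlations of that list with the mean of the 10 genes (r = 0.81, 0.74 and 0.64). Of 13 MAPK phosphatases and sprouty-type feedback genes 7 had higher and 6 lower means, with a median of 0.01 and none at an unadjusted p under 0.05. Of 16 measured upstream factors and kinases 8 were higher and 8 lower. The kinase genes Map2k2 (−0.43, SE 0.17, limma p = 0.0174, adjusted p = 0.770) and Mapkapk2 (0.33, SE 0.13, limma p = 0.0168, adjusted p = 0.770) differed in opposite directions at the unadjusted level.

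The relatives of Zfp36 and its target mRNAs were listed next. Zfp36l1, which encodes a protein that also destabilises AU-rich mRNAs, had means of 12.86 in wt and 12.14 in cre mice, a difference of −0.72 (SE 0.35, limma p = 0.0548, adjusted p = 0.801). Zfp36l2, another such gene, differed by −0.38 (SE 0.20, limma p = 0.0791, adjusted p = 0.810). Both correlated with the mean of the 10 genes, at r = 0.87 and 0.86. Of 18 mRNAs known as targets of ZFP36, 10 had higher and 8 lower means in cre mice, with a median of 0.06 against 0.00337 over all probe sets. Tnf was the 1 target past adjustment, and it is the deleted gene. Among the others, Cxcl2 (−0.54, limma p = 0.0430), Bcl3 (−0.60, limma p = 0.0432) and Lif (0.38, limma p = 0.0377) had unadjusted p-values under 0.05, each with an adjusted p of 0.785. Cxcl2 and Lif had low signals too, with wt means of 5.81 and 4.97. Most of the 18 targets had wt means below the array medians, among them Il23a (3.79), Il6 (4.07) and Csf2 (4.18). Low signals hold background, so the count of directions and the median of this list are less certain.

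Of 9 measured heat shock genes, which rise with handling and stress of tissue, 3 had higher and 6 lower means, with a median of −0.03. Bag3, a co-chaperone gene, was the 1 with an unadjusted p under 0.05 (−0.42, SE 0.17, limma p = 0.0194, adjusted p = 0.770). The heat shock mean had correlations from −0.09 to 0.24 with the 10 genes over all mice. For some genes the batches had opposite signs: r in batch 1 and batch 2 was 0.63 and −0.65 for Fosb, 0.67 and −0.22 for Nr4a1. It was 0.34 and −0.30 for Egr1, so the values over all mice hide differences between batches. The handling time of the tissue is not known here, and its part in these values was not tested.

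**Figure D5:**
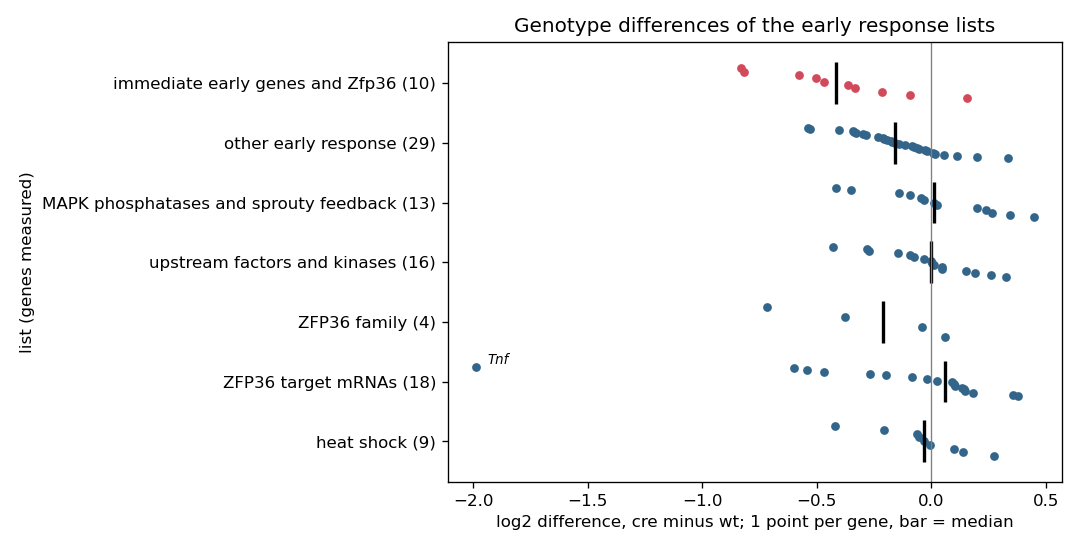
Difference of mean log2 signal, cre minus wt (horizontal axis), for each measured gene of 7 lists, 1 point per gene with the list's median as a bar. The 10 early genes have a median of −0.42, the other early response genes one of −0.16, and the ZFP36 target mRNAs one of 0.06 with Tnf alone at −1.99.

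The promoter sequences were compared over the 250 bases before the start, on both strands, in 32851 windows of the RefSeq table. Windows were present for 8 of the 10 genes, all but Egr1 and Ier2. CREB half-sites (TGACG) were found in 6 of 8 genes (Atf3, Egr2, Fos, Fosb, Junb and Nr4a1), and 17.8% of all windows held one. A CArG box was found in Egr2 and Zfp36, and in 1.47% of all windows. EGR sites (GCGNGGGCG) were found in Fosb, Nr4a1 and Zfp36, against 4.70% of all windows. ETS sites (CCGGAA) were found in Egr2, Nr4a1 and Zfp36, against 12.0%. The TATA box (TATAAA) was found in Fos, against 12.4%, and GC boxes (GGGCGG) in 7 of 8 genes, against 32.7%. In Fosb and Nr4a1 a GC box overlapped the EGR site, and in Zfp36 a GC box shared the first base of the CArG box. No window of the 8 genes held a full CRE (TGACGTCA, 1.55% of all windows) or an AP-1 site (TGANTCA, 6.75%). Egr2 had 5 starts in the table, so it had more windows than the others. A match describes letters only and was not tied to binding in this tissue.

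The genes most like the 10 were found by the correlation of each gene with the mean of their deviations, each scaled by its SD, over 20 mice. These were Tubb6 (r = 0.93), Axl, Emd, Nrros and Bcl2l11 (each 0.90), and then Litaf, Prkcd, Dennd4b, Dtx4 and Plekho2 (each 0.89). The most opposite were Bag1 (−0.91), Scrn3 (−0.87) and Uqcc3 (−0.87). Of 18532 genes 3.36% had r of at least 0.7. Taken singly, Atf3 was nearest to Lat2, Myo1f and C3ar1 (each r = 0.97), and Egr2 to Slc37a2, Pld3 and Cd44 (0.93, 0.93 and 0.92). Zfp36 was nearest to Siglec1, Tns3 and Phc2 (0.89, 0.87 and 0.86), while Nr4a1 was nearest to Dusp5 (0.80). These values describe the same 20 arrays and have no test.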

How the data were processed

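Total RNA of epididymal fat was labelled with the GeneChip WT PLUS kit, per the labels' protocols, and the authors deposited log2 signals of 22206 probe sets on 20 arrays. Transcriptome Analysis Console 4.0.2.15, RMA and mm10 are named in the submitters' processing notes. For background settings, filters and batch adjustment the sources used here give nothing, and RMA leaves no read depth, so the number of mice limits the precision. Genotype, batch and replicate came from the sample titles. Names came from the platform annotation (19572 with 1 symbol, 0 with several, 2634 unnamed here), and all 19572 matched RefSeq genes of GRCm38.p6 by gene number. No pair of arrays held identical values.

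The genotype comparison used limma 3.58.1 under R 4.3.3 (genotype and batch as terms, eBayes, Benjamini-Hochberg over all probe sets, threshold 0.05), which was checked on simulated data. Single genes were also tested by two-sided exact permutation of genotype within batches (63504 regroupings, smallest p 3.15e-05), with no adjustment over the 10 genes. Correlations used deviations from genotype and batch means with 100000 permutations within those groups, adjusted over 45 pairs or 70 relations, with Python 3.11.15, NumPy 2.4.6, SciPy 1.17.1, pandas 2.3.3 and matplotlib 3.10.9. All 10 genes were named, from other lists described in the text up to 3 genes with the smallest unadjusted p under 0.05 and, for macrophage and early response lists, up to 3 with the highest correlation. Relations with the list means, alternatives for the spread and the most alike genes, and the liver mean as a covariate were added after seeing the data. Members and lists were chosen with earlier results of these data known. Alternatives covered batch terms, normalization, filters, array weights, single mice and the macrophage mean as a covariate.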

Additional observations from a re-analysis of the deposited data

Results flagged for a closer look

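Of 60 groups of 10 mice examined, 7 held a mouse far from its group, where chance gives about 1 in 20 groups. Among the early genes, Egr2 in wt replicate 5 was 13.57 with the next wt mouse at 11.82, and Ier2 in wt replicate 7 was 6.05 with the next at 6.67. The others were means of marker lists. Wt replicate 6 stood high for smooth muscle and pericyte genes (10.6, next 9.79) and for epididymis and seminal vesicle genes (12.6, next 5.49). Cre replicate 3 stood high for epididymis and seminal vesicle genes (6.48, next 5.27), wt replicate 4 for exocrine pancreas genes (7.37, next 5.76), and cre replicate 9 for the 2 measured erythroid genes (14.6, next 10.4).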

How the results depend on the processing

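Over all probe sets 1 passed for genotype, and 0 did in batch 1 alone, in batch 2 alone or with the replicate number as a block, 2 did with the macrophage mean as a covariate, and 1 to 2 did with 1 mouse left out (2 without wt replicate 4). Exact tests, with no adjustment over the 10 genes, gave 2 early genes a p under 0.05. They were run for these genes and Tnf only, so no share over all probe sets stands beside that count. The count was 0 in batch 2 alone, 1 without the mice with another tissue's genes, 1 with the replicate block (Nr4a1, p = 0.0312, with Zfp36 at p = 0.0742) and 0 to 4 with 1 mouse left out (0 without wt replicate 5, 4 without cre replicate 3 or cre replicate 4). Between the wt and cre mouse of one replicate number, r of the deviations ran from −0.39 to 0.35, over 0.1 in 5 of 10 pairs. Such values cannot show whether mice of one number were matched, so pairing was left undecided. Correlated pairs numbered 9, and 17 without centring, 0 in wt mice alone, 0 in cre mice alone, 0 in batch 2 alone, 2 without the mice with another tissue's genes, 5 after quantile normalization, 0 with the macrophage mean removed, 0 without the 2 farthest mice and 2 to 10 with 1 mouse left out (2 without wt replicate 5). The 4 genes of wide spread became 2 to 4 with 1 mouse left out (2 without cre replicate 9). Of the 10 most alike genes, 2 were shared without the mice with another tissue's genes and 2 to 10 with 1 mouse left out (2 without wt replicate 10).

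Directions turned for Atf3 in batch 2 alone (0.0798) and with the macrophage covariate (0.0881), for Ier2 in batch 1 alone (0.18), and for the batch differences of Fosb (−0.0036) and Ier2 (−0.0066) with arrays centred on their medians. With 1 mouse left out, batch differences crossed 0 for Fos (−0.0335 to 0.18), Fosb (−0.0789 to 0.0692), Junb (−0.0324 to 0.16), Egr1 (−0.19 to 0.14), Egr2 (−0.31 to 0.21), Ier2 (−0.0998 to 0.0646) and Zfp36 (−0.301 to 0.0835), while no genotype difference of the 10 genes did. The cause of these changes was not tested. A second probe set per gene could not be tried, since each gene had 1.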
